A study of Homo sapiens with 8 samples.

Results

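The 10 genes described here encode the SEC61 channel of the endoplasmic reticulum (ER), the TRAP complex that sits beside it, and partners of both. They were taken by name from the table of read counts per gene: SEC61A1, SEC61B, SEC61G, SEC62, SSR1, SSR2, SSR3, SSR4, SERP1 and TRAM1. All 10 have a row among the 18555 in the table, and all 10 were among the 14337 genes tested. RNA-seq compared 3 libraries of cells transfected with an siRNA against XBP1 (siXBP1) with 3 libraries of cells given a non-targeting control siRNA (siNC). The cells are labelled HepG2, a human liver tumour line. Both groups received 30 nM thapsigargin for 3 hours, 2 days after transfection, so the control libraries are from stressed cells as well. Thapsigargin empties the ER of calcium and starts the unfolded protein response. ChIP-seq of XBP1s, also in the series, was not analysed here.

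Proteins bound for secretion or for membranes enter the ER while they are being made. The ribosome docks on the SEC61 channel, a pore subunit (SEC61A1) with the small subunits SEC61B and SEC61G, and the growing chain passes through the pore or moves sideways into the membrane. TRAP, made of the products of SSR1 to SSR4, lies next to the channel and helps signal sequences that open it poorly. When unfolded proteins build up in the ER, IRE1 splices XBP1 mRNA, and the spliced form encodes XBP1s, a transcription factor known for raising genes of the secretory pathway.

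Library totals lay between 38209972 and 38890070 counts. XBP1 itself averaged 288 ± 11.4 CPM (a gene's counts over the library total, on the usual counts-per-million scale) in siXBP1 and 518 ± 29.5 CPM in siNC (SD, n = 3 each). Its log2 fold change was -0.84 (SE 0.08, edgeR adjusted p = 0.0331). Gene counts do not tell spliced from unspliced XBP1 mRNA. The libraries held next to no hepatocyte transcripts, against what the label HepG2 implies. Of 12 hepatocyte markers looked up by name, 7 have values here, among them AFP, TF and HNF4A. For the other 5 no row was found in the table used here. HNF4A alone passed the filter on low counts, none of the 7 reached a mean of 1 CPM, and their sum was 0.877 to 1.3 CPM in siXBP1 and 0.463 to 0.753 CPM in siNC libraries. Markers of other epithelia summed to 4171 to 5297 CPM in siXBP1 and 4264 to 5685 CPM in siNC, nearly all from KRT17 and KRT7. Only 3 of these 8 markers reached a mean of 1 CPM. EPCAM, CDH1, KRT5, KRT6A and TP63 did not. Fibroblast markers summed to 346 to 353 CPM against 323 to 340.5 CPM. LUM and COL3A1 had the highest means of these 7, and COL1A2 and THY1 stayed below a mean of 1 CPM. Endothelial markers, 4 of 5 with a row, summed to 6.32 to 8.98 CPM against 7.74 to 9.53 CPM. Leukocyte markers, 2 of 5 with a row and nearly all CD68, summed to 40.2 to 43.5 CPM against 37.2 to 43.6 CPM. The part of these transcripts in the results below was not tested. Most of the variance, 59.2%, lay on a principal component that did not follow the groups. siXBP1 replicate 3 (score -0.65) and siNC replicate 1 (score 0.64) were its extremes, and the remaining 4 libraries scored -0.29 to 0.24. The second component, with 15.3% of the variance, did separate the groups. On it siXBP1 libraries scored 0.15 to 0.73 and siNC libraries -0.42 to -0.25.

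XBP1s is known to bind short elements with ACGT at their centre, among them the unfolded protein response element (UPRE) TGACGTGG or TGACGTGA, and to act at the ER stress response element (ERSE), in which CCAAT is followed after any 9 bases by CCACG. Promoter windows from RefSeq (GRCh38.p14), which run from 250 bases before a transcript start to 50 after it, were found for 9 of the 10 genes, all but TRAM1, with 13 windows in all because SEC61A1, SSR3 and SSR4 have more than 1 annotated start. Both strands were searched. The stretches below carry the longer matches, and are shown on the strand of the gene, 5′ to 3′, with the matching bases in capitals.

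SERP1, ERSE on the opposite strand, 232 to 214 bases before the start, chr3:150546705-150546734, minus strand: ctcatgCGTGGAGACAGCGAATTGGtgttt

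SEC62, UPRE on the opposite strand, 17 to 10 bases before the start, chr3:169966777-169966806, plus strand: ccccctcctcgctCCACGTCAgagggaacc

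SSR3, UPRE on the opposite strand, 41 to 34 bases before the third annotated start, chr3:156554148-156554177, minus strand: tctgataacagCCACGTCAgcaaggaaact

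SSR4, UPRE on the opposite strand, 129 to 122 bases before the second annotated start, chrX:153794528-153794557, plus strand: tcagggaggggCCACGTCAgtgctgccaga

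SSR1, the 150 bases before its single annotated start, chr6:7313200-7313349, minus strand, with each GCCACGT and the further ACGT in capitals: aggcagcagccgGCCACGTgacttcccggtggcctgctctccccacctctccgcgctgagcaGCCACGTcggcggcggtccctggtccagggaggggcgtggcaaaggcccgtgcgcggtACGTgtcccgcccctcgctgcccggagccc

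TGACGTGG was found in windows of 3 of the 9 genes (SEC62, SSR3 and SSR4), against 0.927% of the 27305 genes with a window and 1.2% of the 11290 of these that were tested. The ERSE was found for 1 (SERP1), against 0.0916% of all and 0.142% of tested genes. GCCACGT, which shares its last bases with the UPRE in SSR3 and SSR4, was found for 3 (SSR1, SSR3 and SSR4), against 3.95% of all and 5.62% of tested genes. The bare ACGT was found for 8, against 37.8% of all and 47.7% of tested genes. CCACG was found for 8, against 42.1% and 56.3%, and CCAAT for 7, against 39.7% and 42.9%. TGACGTGA and ERSE-II (ATTGG, any base, CCACG) were found for none of the 9, against 0.52% and 0.0696% of all and 0.682% and 0.133% of tested genes. SSR2 was the gene without ACGT, and SEC61A1 had it at bases 2 to 5 after its second start. These are matches of letters in a fixed window, not measured binding, and genes with several windows have more chances of a match.

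**Figure D1:**
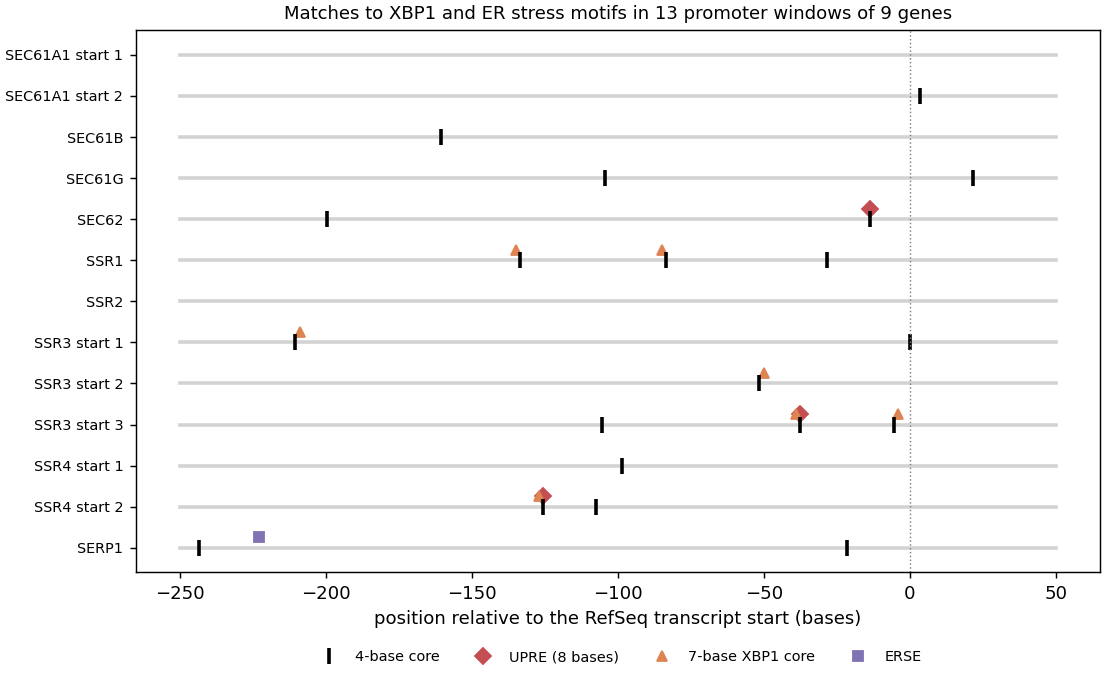
Motif matches in the 13 RefSeq promoter windows of 9 genes; the horizontal axis is the position in bases relative to the annotated transcript start, and each grey line is a window. Diamonds mark the UPRE TGACGTGG (SEC62, SSR3 and SSR4), the square marks the ERSE of SERP1, triangles mark GCCACGT and ticks mark ACGT.

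The 3 subunits of the channel were each lower in every siXBP1 library than in any siNC library, with means at 81.0% (SEC61A1), 81.3% (SEC61B) and 86.2% (SEC61G) of siNC. SEC61A1 (gene ID 29927, chromosome 3, 128051641 to 128071683), which forms the pore, had 412, 393 and 377 CPM in siXBP1 replicates 1 to 3, against 504, 476 and 479 CPM in siNC replicates 1 to 3. All siXBP1 values lay below all siNC values. Its mean was 394 ± 17.5 CPM in siXBP1 and 486 ± 15.2 CPM in siNC (SD, n = 3 each), and the log2 fold change was -0.30 (SE 0.08, 95% interval -0.48 to -0.12). SEC61B (gene ID 10952, chromosome 9, 99222282 to 99230615), a small tail-anchored subunit, had 42.5, 48.3 and 39.4 CPM in siXBP1 and 56.6, 49.7 and 53.8 CPM in siNC. siXBP1 replicate 2 and siNC replicate 2 nearly met, and the log2 fold change was -0.30 (SE 0.12, 95% interval -0.56 to -0.03). SEC61G (gene ID 23480, chromosome 7, 54752253 to 54759211), the small subunit that clamps the pore, had 59.6, 68.3 and 65.9 CPM in siXBP1 and 78.2, 74.4 and 72.03 CPM in siNC. The groups were apart by a few CPM, and the interval of its log2 fold change reached 0 (-0.21, SE 0.10, 95% interval -0.44 to 0.02).

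None of these differences passed the test over all genes, nor did that of any other member: the edgeR quasi-likelihood adjusted p was 1.00 for each of the 10. By that rule 0.00697% of all genes tested were called, a single gene, XBP1. At an unadjusted p under 0.05, 4 of the 10 were lower and 0 higher, beside 1.7% of all genes lower. These were SEC61A1, SSR3, SEC61B and SSR2, at ranks 49, 65, 361 and 379 by p among the 14337 genes. DESeq2 and limma-voom also called 0 of the 10, beside 0.0863% (DESeq2, 0.0485% lower) and 0.00697% (limma-voom) of all genes. Each also gave 4 members at an unadjusted p under 0.05, beside 1.52% (DESeq2) and 1.74% (limma-voom) of genes lower. In a bulk library, fewer cells that express a gene and less of its RNA per cell cannot be told apart.

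**Figure D2:**
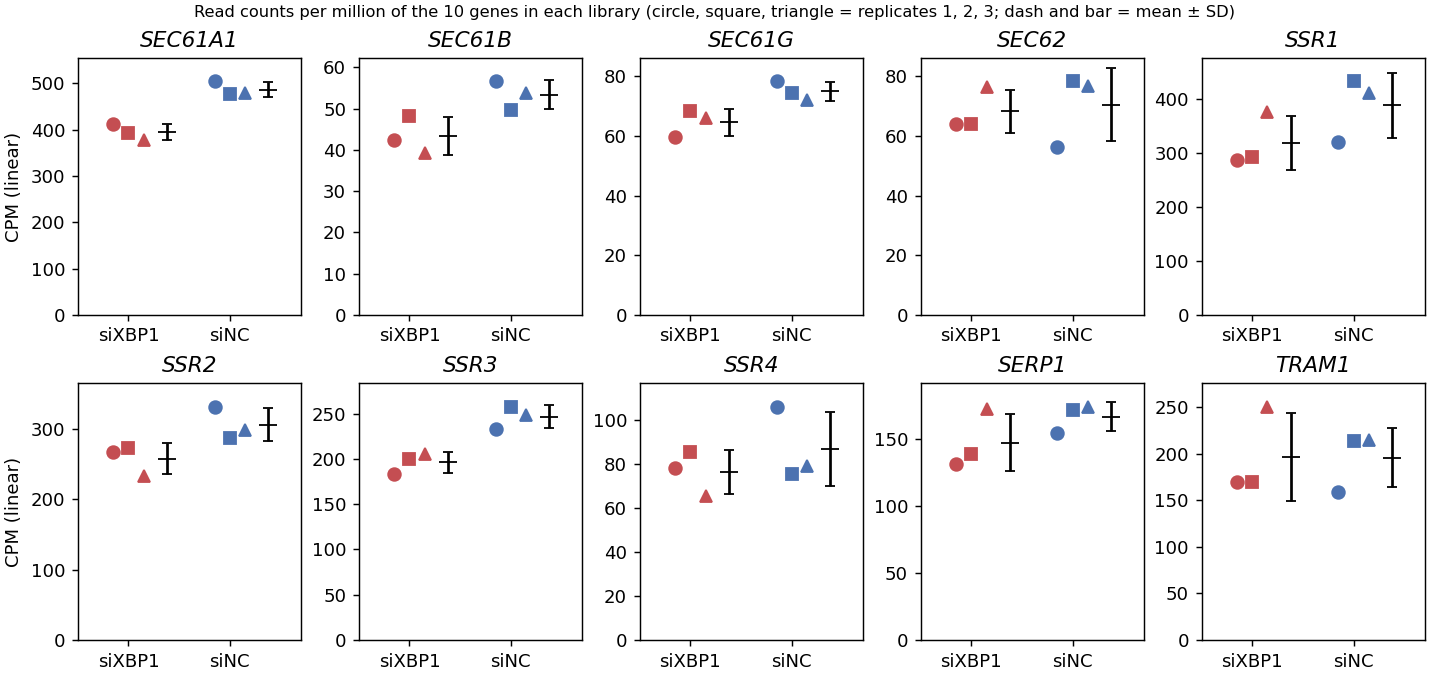
Level of each of the 10 genes in CPM on linear axes that start at 0, with siXBP1 libraries (red) left of siNC libraries (blue); symbols give the replicate number, and the dash with its bar gives the mean ± SD of 3 libraries. The groups are apart for SEC61A1, SEC61B, SEC61G, SSR2 and SSR3 and overlap for the other 5.

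The 4 TRAP subunits had lower means in siXBP1, but not in the same libraries. SSR3 (gene ID 6747, chromosome 3, 156539553 to 156555117), the gamma subunit, had 184, 200.1 and 205 CPM in siXBP1, against 233, 258 and 249 CPM in siNC. Every siXBP1 library lay below every siNC library, and the spread within each group was small. The means were 196 ± 11.3 CPM in siXBP1 and 246 ± 12.8 CPM in siNC (SD, n = 3 each), so that siXBP1 stood at 79.6% of siNC, the lowest ratio of the 10 (log2 fold change -0.33, SE 0.09, 95% interval -0.53 to -0.12). SSR2 (gene ID 6746, chromosome 1, 156009048 to 156020951), the beta subunit, had 268, 273 and 233 CPM in siXBP1 and 332, 287 and 299 CPM in siNC. The groups were apart here too, although siXBP1 replicate 2 came near siNC replicate 2, and the log2 fold change was -0.24 (SE 0.10, 95% interval -0.47 to -0.02).

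SSR1 (gene ID 6745, chromosome 6, 7281143 to 7313199), the alpha subunit, had 287, 293 and 376 CPM in siXBP1 and 320, 432 and 410 CPM in siNC. siXBP1 replicate 3 lay above siNC replicate 1, so the groups overlapped, and the SDs, 49.7 CPM in siXBP1 and 59.4 CPM in siNC, were near the size of the difference between the means (log2 fold change -0.28, SE 0.14, 95% interval -0.59 to 0.03). SSR4 (gene ID 6748, chromosome X, 153794159 to 153798499), the delta subunit, had 78.5, 85.4 and 65.5 CPM in siXBP1 and 106, 75.5 and 79.3 CPM in siNC. Its highest value by far was siNC replicate 1, the other siNC libraries lay within the range of siXBP1, and the log2 fold change was -0.18 (SE 0.15, 95% interval -0.53 to 0.16). SSR1 and SSR4 thus leaned opposite ways in the same libraries: siNC replicate 1 was the lowest siNC library for SSR1 and the highest for SSR4, and siXBP1 replicate 3 was the highest siXBP1 library for SSR1 and the lowest for SSR4.

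The subunits were also taken as shares of the summed SSR1 to SSR4 counts, which do not depend on the library total. SSR1 made up 37.4 ± 4.63% in siXBP1 and 37.6 ± 4.69% in siNC, SSR2 30.4 ± 3.46% and 29.9 ± 3.25%, SSR3 23.1 ± 0.547% and 24.0 ± 0.515%, and SSR4 9.03 ± 1.39% and 8.52 ± 1.93% (SD, n = 3 each). Two-sided exact permutation tests gave p = 1 for SSR1, 1 for SSR2, 0.2 for SSR3 and 0.9 for SSR4 (adjusted over the 4, 0.8 for SSR3 and 1 for the others), where 3 libraries against 3 allow no p below 0.1, so these tests cannot show that the shares are alike. The share of SSR3 varied least, and its difference, -0.89 percentage points, was larger than the SD of either group. The differences of SSR1 (-0.21), SSR2 (0.59) and SSR4 (0.51) were smaller than theirs, and the share of SSR1 ran from 34.4% to 42.7% within siXBP1 and from 32.3% to 41.0% within siNC. These are shares of counts, not of molecules, since transcript length is not taken into account.

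For the 3 partners of the channel the groups overlapped. SERP1 (gene ID 27230, chromosome 3, 150541998 to 150546496) encodes RAMP4, a small protein that binds the channel and was named for its induction by stress. It had 132, 139 and 172 CPM in siXBP1 and 155, 171 and 174 CPM in siNC (log2 fold change -0.18, SE 0.12, 95% interval -0.44 to 0.09). siXBP1 replicates 1 and 2 lay below the siNC range and siXBP1 replicate 3 lay inside it. SEC62 (gene ID 7095, chromosome 3, 169966807 to 169998373), which with SEC63 helps short or weakly targeted chains into the channel, had 64.1, 64.0 and 76.5 CPM in siXBP1 and 56.3, 78.3 and 76.8 CPM in siNC. The lowest value was a control library, siNC replicate 1, and the log2 fold change was -0.05 (SE 0.14, 95% interval -0.37 to 0.28).

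TRAM1 (gene ID 23471, chromosome 8, 70573218 to 70608416) encodes a membrane protein beside the channel that contacts signal sequences. It had 169, 169 and 251 CPM in siXBP1 and 160, 214 and 215 CPM in siNC. Its highest library was siXBP1 replicate 3 and its lowest siNC replicate 1, and the means, 196 ± 47.1 CPM in siXBP1 and 196 ± 31.6 CPM in siNC (SD, n = 3 each), were alike (log2 fold change 0.00, SE 0.17). The 95% interval, -0.38 to 0.39, includes the differences estimated for the channel subunits, which were therefore not excluded for TRAM1.

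Summed, the 10 genes held 1695, 1733 and 1860.5 CPM in siXBP1, against 1999.7, 2116 and 2108 CPM in siNC. All siXBP1 sums lay below all siNC sums, and the mean sum in siXBP1 stood at 85.0% of that in siNC (1763 ± 86.5 and 2075 ± 64.9 CPM, SD, n = 3 each). By edgeR, 9 of the 10 had an estimate below 0, beside 47.2% of all genes tested, and their median log2 fold change was -0.23, beside 0.01 for all genes tested. The groups did not overlap for 5 of the 10, all lower in siXBP1 (SEC61A1, SEC61B, SEC61G, SSR2 and SSR3), beside 3.74% of all genes lower without overlap and 8.75% without overlap in either direction. The 10 genes were chosen with earlier results of these data known, so these counts describe the list and carry no test. No levels are compared between genes, because no transcript lengths were used.

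**Figure D3:**
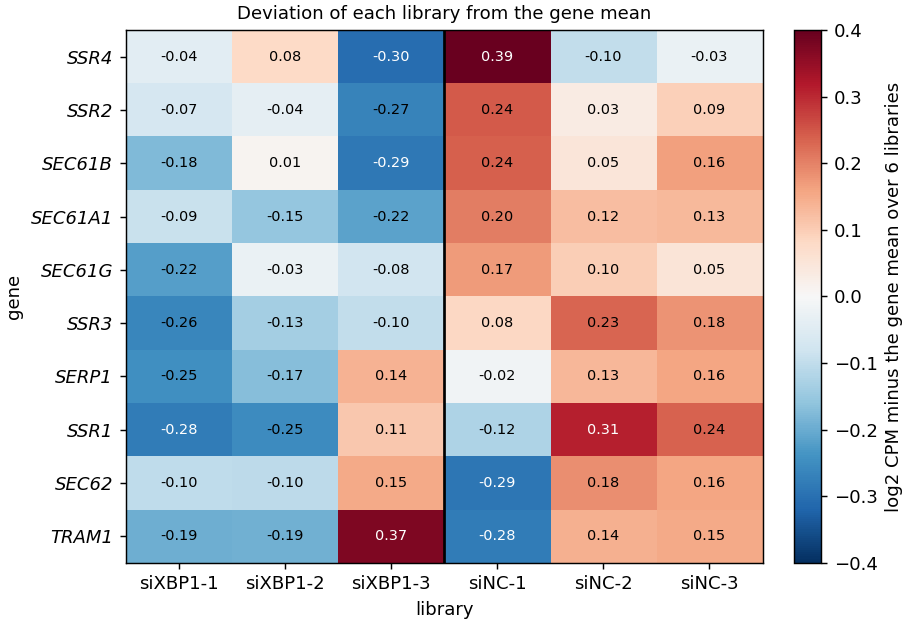
Each row is a gene and each column a library, siXBP1 left of the black line and siNC right of it; colour and number give log2 CPM minus the mean of the gene over the 6 libraries. SSR4 and SSR2 at the top are highest in siNC-1 and lowest in siXBP1-3, whereas SEC62 and TRAM1 at the bottom are lowest in siNC-1.

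The 10 genes did not share one pattern over the libraries. Regressed on the score of the first component, log2 CPM had a positive slope for SSR4 (0.48), SSR2 (0.29), SEC61B (0.27), SEC61A1 (0.18) and SEC61G (0.07), which were all highest in siNC replicate 1. The slope was negative for TRAM1 (-0.55), SEC62 (-0.39), SSR1 (-0.36), SERP1 (-0.24) and SSR3 (-0.04). The genomic span of the genes with a positive slope was 4341 to 20043 bases and that of the others 4499 to 35199 bases. By the root mean square distance between centred log2 CPM profiles, the closest pair was SEC61B and SSR2 (0.06) and the most distant SSR4 and TRAM1 (0.43), so that subunits of different complexes lay nearer each other than the TRAP subunits SSR1 and SSR4 did (0.37). SEC61G and SSR3, with slopes near 0, were each other's nearest (0.096). SEC63, the partner of SEC62, had 162, 157 and 186 CPM in siXBP1 and 145, 217 and 206 CPM in siNC replicates 1 to 3. Like SEC62 it was lowest in siNC replicate 1 and highest in siNC replicate 2. The pattern was not particular to this pair. SRP72, of the signal recognition particle, was likewise lowest in siNC replicate 1 (138 CPM) and highest in siNC replicate 2 (179 CPM). So was STT3B, of the oligosaccharyltransferase (172 and 218 CPM).

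Because siXBP1 replicate 3 and siNC replicate 1 stand apart, the members were also fitted without both, and with the score of the first component as a covariate. Without both libraries, 4 of the 10 were lower at an adjusted p under 0.05 by edgeR, beside 3.42% of all genes lower and 4.87% in either direction, in a fit with 2 libraries a group. These were SSR1 (-0.53, SE 0.08, adjusted p = 8.79e-05), SSR3 (-0.40, SE 0.09, adjusted p = 0.00373), SERP1 (-0.35, SE 0.09, adjusted p = 0.0122) and TRAM1 (-0.33, SE 0.08, adjusted p = 0.014). SEC61A1 had -0.24 (adjusted p = 0.0789), SEC62 -0.27 (0.0929), SEC61G -0.19 (0.302), SEC61B -0.18 (0.369), SSR2 -0.11 (0.517) and SSR4 0.09 (0.687), the last with its sign turned. With the covariate, 3 of the 10 were lower, beside 0.488% of all genes lower and 1.2% in either direction: SSR1 (-0.36, adjusted p = 0.000523), SSR3 (-0.35, adjusted p = 0.00154) and SEC61A1 (-0.28, adjusted p = 0.00524). SERP1 (-0.24, adjusted p = 0.0582) and SSR2 (-0.20, adjusted p = 0.0823) came next, and TRAM1 had -0.11 (adjusted p = 0.499). SSR1 and SSR3 were called in both fits, and SEC61B, SEC61G, SEC62, SSR2 and SSR4 in neither. Both fits act on the same component, so a call in both is not independent support. Both fits use what the libraries themselves showed, the component was computed from these same counts, and their p-values may be too small. The libraries left out were a siXBP1 and a siNC library at opposite ends of the component. Without them, the 5 members with a negative slope had lower estimates and the 5 with a positive slope had higher ones. That direction follows from which libraries were left out. With the covariate, the estimates of all 10 moved the same way, as for SSR1 (-0.28 to -0.36) and SSR4 (-0.18 to -0.09).

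**Figure D4:**
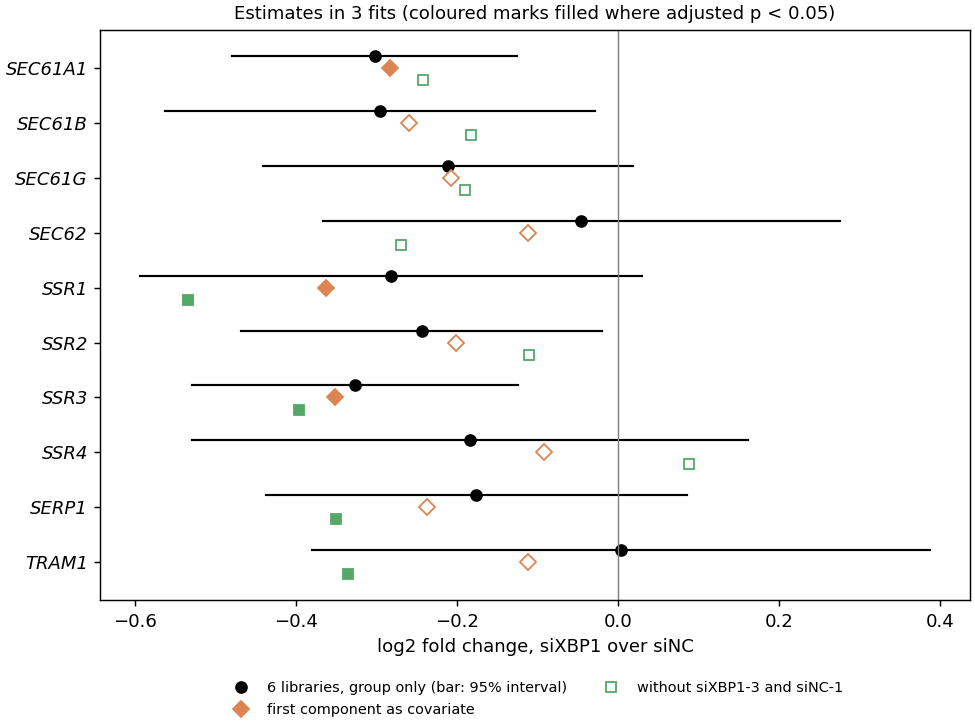
Log2 fold change of siXBP1 over siNC for each gene in 3 fits: black circles use all 6 libraries with a 95% interval, orange diamonds add the first component as a covariate, and green squares leave out siXBP1-3 and siNC-1. Coloured marks are filled where the adjusted p is under 0.05; SSR1, SERP1, SEC62 and TRAM1 move down and SSR4 and SSR2 move up when the end libraries are left out.

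Other genes that bring proteins into the ER were counted from 8 lists of 60 genes, of which 57 were tested. None was called. At an unadjusted edgeR p under 0.05, 1 was lower (HYOU1) and 0 higher, a share near the 1.7% of all genes lower. Of the 57, 40 had estimates below 0, beside the 47.2% of all genes, and the median was -0.06, beside 0.01. The groups did not overlap for 6 of the 57 in either direction, a share near the 8.75% of all genes. Lower without overlap were 5 of the 57, beside 3.74% of all genes. HYOU1, an exchange factor for the chaperone BiP that pulls chains through the channel, had 813, 761 and 750.0 CPM in siXBP1 and 1025, 957 and 975 CPM in siNC (log2 fold change -0.35, SE 0.08, edgeR adjusted p = 0.984). Its groups did not overlap. HSPA5, BiP itself, had overlapping groups and a log2 fold change of -0.07 (SE 0.07).

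Signal recognition particle and its receptor bring ribosomes to the channel, and 7 of 8 of these genes had estimates below 0 (median -0.08), beside the same 47.2% of all genes, which is also the background for the lists that follow. SRP68 (115 ± 2.75 CPM in siXBP1 and 126 ± 4.23 CPM in siNC; -0.14, SE 0.09) and SRP19 (59.5 ± 1.34 and 65.1 ± 4.15 CPM; -0.13, SE 0.10) had groups that did not overlap. In the oligosaccharyltransferase list, whose enzyme adds glycans to chains leaving the channel, 10 of 12 estimates were below 0 (median -0.08), with STT3A, the catalytic subunit that works beside the channel, at 218 ± 2.63 and 238 ± 5.44 CPM (-0.12, SE 0.08). Signal peptidase, which removes signal sequences, had 3 of 5 below 0 (median -0.03), with SEC11C at 28.6 ± 3.82 CPM in siXBP1 and 33.6 ± 0.974 CPM in siNC (-0.23, SE 0.13; n = 3 for all means).

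The remaining lists had medians near 0. The multipass translocon had 8 of 9 estimates below 0 (median -0.04; CCDC47 0.01, SE 0.09; NOMO1 -0.02, SE 0.08), and NOMO1, NOMO2 and NOMO3 are near-identical copies whose reads may be shared. The ER membrane complex (EMC), an insertase for membrane proteins, had 5 of 10 (median 0.00; EMC1 -0.01, SE 0.09; EMC10 -0.11, SE 0.15), and the GET pathway for tail-anchored proteins 4 of 6 (median -0.01; GET3 0.00, SE 0.12; UBL4A -0.05, SE 0.11). Among further translocon genes, SEC61A2, a paralogue of the pore subunit, was the gene without overlap in the other direction, with 14.7, 14.0 and 13.9 CPM in siXBP1 and 12.5, 13.7 and 13.3 CPM in siNC (0.11, SE 0.12). Its groups were separated by less than 1 CPM.

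**Figure D5:**
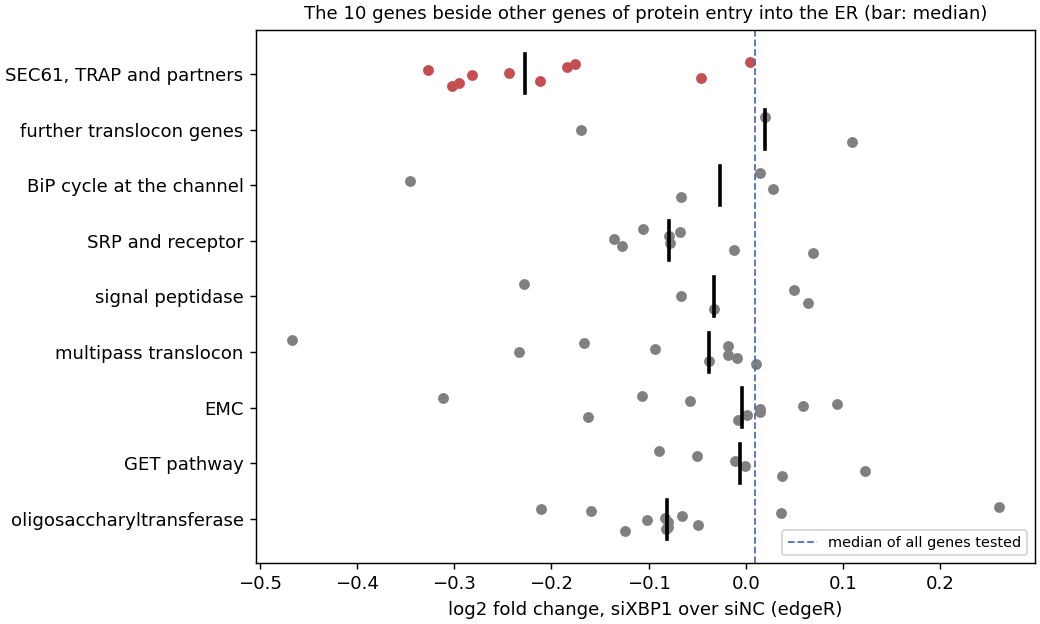
The edgeR log2 fold changes of siXBP1 over siNC, 1 point for each gene, for the 10 genes (red, top row) and for 8 lists of other genes of protein entry into the ER (grey); black bars are medians and the dashed line is the median of all genes tested, 0.01. The median of the 10 genes is -0.23, and those of the lists lie between -0.08 and 0.02.

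Genes with the profile most like the average of the 10 over the 6 libraries were sought among 7855 other tested genes that averaged 20 CPM or more, by the same distance. The nearest was TMED10 (0.015), a cargo receptor of the p24 family, followed by PLCG1 (0.029), LYAR (0.032), SHCBP1 (0.033) and TMED2 (0.034), also of the p24 family. Their log2 fold changes lay between -0.24 (SHCBP1) and -0.17 (TMED2). The groups did not overlap for any of the 5, all lower in siXBP1, beside 3.74% of all genes tested. The 5 were picked for likeness to a profile that was itself lower in every siXBP1 library than in any siNC library. Their direction and separation follow from that choice and carry no test. Nearest to SEC61A1 were HYOU1 (0.025), WDR6 (0.034) and PDIA4 (0.04), an ER disulfide isomerase. Nearest to SSR3 were EDEM1 (0.029), of ER-associated degradation, TMEM39A (0.032) and SHCBP1 (0.045), and nearest to SSR1 were DNAJC3 (0.049), an ER co-chaperone, ZNF302 (0.059) and PFDN4 (0.06). For the others, the nearest 3 follow, with the distance of the first. They were IFT122 (0.037), HERPUD1 and TXN to SEC61B, and NPTN (0.022), MGAT2 and TIMM17A to SEC61G. To SEC62 they were GOLIM4 (0.014), WAPL and GTF3C3, and to SSR2 CARS2 (0.027), MANF and TXN. GSN (0.0079), GADD45GIP1 and EEF1D were nearest to SSR4, and ERLEC1 (0.043), SRSF1 and UBE2J1 to SERP1. BPNT2 (0.022), SIKE1 and FAM91A1 were nearest to TRAM1. The direction of the genes nearest to single members also follows from the choice by likeness and carries no test.

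Some reads of these genes may belong elsewhere, because the strand setting of the counting is not given in the sources used here. SEC61A1 shares 6899 bases of its span with RUVBL1, which had 3882 to 4599 counts per library and a log2 fold change of -0.05 (SE 0.10). SSR4 shares 217 bases with IDH3G, which had 2538 to 3299 counts and a log2 fold change of 0.03 (SE 0.13), and it has a transcribed pseudogene, SSR4P1, with 130 to 198 counts against 2501 to 4131 for SSR4.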

How the data were processed

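The values are whole-number read counts per gene that the authors deposited without normalization, 1 column for each of the 6 RNA-seq libraries. Per the submitters' processing notes, hg38, featureCounts 1.5.0 of Subread and STAR 2.5.2a were among the builds and tools used, and the labels' protocols name a strand-specific kit. The annotation is not given in the sources used here. RefSeq names (GRCh38.p14) were found for 18526 of 18555 NCBI Gene IDs. Between 75.8% and 80.5% of counts from 1 to 40 were even, so fragments may be fewer than counts.

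Groups come from sample titles. Nothing states that replicates came from separate cultures, so the p-values reflect only the variation among these libraries, possibly technical. No replicates agreed within sampling noise. Genes were kept with filterByExpr, scaled by TMM and tested with edgeR 4.0.16 (R 4.3.3, two-sided quasi-likelihood test, group only), with Benjamini-Hochberg adjustment over all genes and a threshold of 0.05. The SE is the log2 fold change divided by the square root of F. CPM are counts over the library total. Principal components used log2 CPM of the 11528 genes averaging 100 counts or more. Alternatives were other scalings and filters, DESeq2 1.42.0, limma-voom 3.58.1, a replicate block, leaving out libraries, the first component as a covariate, halved counts and an adjusted p under 0.01. The procedure was also run on simulated data, but the outcome is not given here and gives no error rate for these libraries.

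The members, lists and tests were chosen with earlier results of these data known. From each list the text names called genes, otherwise up to 2 non-overlapping genes of largest change that averaged 5 CPM or more. Where none qualified, it names the 2 most abundant. HSPA5, SEC63, SRP72 and STT3B were added after their values were seen.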

Additional observations from a re-analysis of the deposited data

How the results depend on the processing

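No member was called under the other scalings, filters and tools or with any single library left out. The exceptions were 4 members called without both end libraries of the first component and 3 with that component as a covariate. The count of genes called, 1, became 16 with DESeq2, 702 without both end libraries, 172 with the covariate and 0 at an adjusted p under 0.01, and was 0 to 1 with 1 library left out. Fewer libraries alone change what does not overlap: 5 members were apart, and 5 to 7 with 1 library left out. The estimate of TRAM1 was below 0 with limma-voom (-0.0069), the replicate block (-0.0066), the covariate (-0.11) and without both end libraries (-0.33), where SSR4 was above 0 (0.088). Without both end libraries, the direction of the shift follows from which libraries were left out. What sets those libraries apart was not tested. With 1 library left out, TRAM1 ran from -0.22 to 0.10 and SEC62 from -0.19 to 0.031; the other 8 members kept their sign, with SEC61A1 from -0.33 to -0.28, SSR3 from -0.37 to -0.28, SSR1 from -0.43 to -0.20, SERP1 from -0.31 to -0.10 and SSR4 from -0.29 to -0.02. The group difference in TRAP shares, in percentage points, ran from -2.88 to 1.5 for SSR1, -0.71 to 2.58 for SSR2, -0.16 to 1.62 for SSR4 and -1.14 to -0.58 for SSR3; these ranges, like the overlap counts, were added after seeing the data.

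No label says that replicate numbers pair the libraries. Across genes, deviations of same-numbered libraries correlated at r = 0.60, -0.36 and 0.43 for numbers 1, 2 and 3. Different numbers also correlated, siXBP1 replicate 3 with siNC replicate 2 at 0.65 and siXBP1 replicate 2 with siNC replicate 1 at 0.46, so not every library correlated best with its own number. With the replicate block 1 gene and 0 members were called, and the adjusted p of members was 0.692 or more. Scaling did not move the median of all genes, which was 0.0079 to 0.011 with TMM, size factors or library size alone. The standard errors of the members, 0.08 to 0.17, set the size of change that 3 libraries a group can show.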
